A study of Mus musculus with 6 samples.

Results

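The olfactomedin family was examined in the hippocampus of mice with and without a maternal copy of *Ube3a*. The family was taken as the 7 genes *Olfm1*, *Olfm2*, *Olfm3*, *Olfml1*, *Olfml2a*, *Olfml2b* and *Olfml3*, out of 25239 gene symbols in the count files. All 7 passed the filter on low counts and were among the 14445 genes tested. The family was singled out because *Olfm3* stood among the largest falls between these same mice, so the genotype differences of its members are descriptions here and not tests.

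RNA sequencing compared 3 Ube3am-/p+ male mice with 3 Ube3am+/p+ (WT) male mice, with 1 library per mouse. Ube3am-/p+ mice, a model of Angelman syndrome, lack the maternal copy of *Ube3a*, a ubiquitin ligase gene, and carry an intact paternal copy, which imprinting silences in most neurons but not in other cells of the brain. All mice were on the C57BL/6 background, aged 6 to 8 weeks by the study's methods, and the hippocampus was used whole. The sources used here name neither litters nor the day of dissection, so the spread between libraries may hold both biological and technical variation.

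Proteins of this family share an olfactomedin domain, a propeller-shaped fold that binds other extracellular proteins, and most of them are secreted. *Olfm1*, *Olfm2* and *Olfm3* encode the noelins, brain glycoproteins that assemble with one another and bind AMPA-type glutamate receptors at synapses, and noelin-1 also binds the Nogo receptor. *Olfml2a* and *Olfml2b* encode the photomedins, which bind sulphated polysaccharides of the extracellular matrix, and *Olfml3* encodes a secreted matrix protein that microglia express in the mouse brain.

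Counts on genes ranged from 7293272 to 11314409 per library, and 39.0% to 41.8% of the reads listed fell on genes. *Ube3a* had 104, 141 and 151 CPM (the count scaled to the library's total gene count) in WT mice 1, 2 and 3, and 96.8, 82.9 and 80.6 CPM in Ube3am-/p+ mice 1, 2 and 3. It was lower in every Ube3am-/p+ mouse, with a log2 fold change of -0.58 ± 0.12 (SE, n = 3 mice per genotype, adjusted p = 0.0363 by edgeR's quasi-likelihood test). The 8 markers of hippocampal neurons were present in all libraries and summed to 2663 to 2940 CPM in WT mice and to 2844 to 3197 CPM in Ube3am-/p+ mice. *Slc17a7* made up much of these sums, with means of 1338 CPM (WT) and 1686 CPM (Ube3am-/p+). Of the 8 markers, 2 had a log2 fold change above 0 and 6 below. At an unadjusted p below 0.05 in edgeR there were 2 higher and 4 lower, beside 24.6% of all tested genes. The share of neurons in the libraries was not tested. The libraries differed in how counts followed the GC content of transcripts. Spearman's rho between GC content and a gene's deviation from its mean over the 6 libraries, across 14201 genes, was 0.05 and 0.06 in mouse 1 of each genotype, -0.51 and -0.57 in WT mice 2 and 3, and 0.53 in both Ube3am-/p+ mice 2 and 3. The *Ube3a* values above carry no correction for this trend. Markers of the choroid plexus also differed between mice within a genotype, from 101 to 2193 CPM in WT mice and from 107 to 2279 CPM in Ube3am-/p+ mice.

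*Olfm3*, the gene of noelin-3, was lower in Ube3am-/p+ mice by more than any other member. It had 19.6, 22.8 and 24.1 CPM in WT mice 1, 2 and 3, from 166, 198 and 176 counts. In Ube3am-/p+ mice 1, 2 and 3 it had 14.3, 12.2 and 10.6 CPM, from 127, 138 and 111 counts. The lowest WT mouse lay above the highest Ube3am-/p+ mouse, so the genotypes did not overlap. The mean was 22.2 ± 2.36 CPM in WT mice and 12.4 ± 1.89 CPM in Ube3am-/p+ mice (SD, n = 3 each), 44.3% lower. The fitted log2 fold change was -0.83 ± 0.15 (SE), with a 95% interval from -1.14 to -0.52 and an adjusted p of 0.0362 in edgeR.

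These are the values that chose *Olfm3*. A gene counted as called when its adjusted p was under 0.05 and its fold change over 1.2, which held for 2.01% of all tested genes, and for 0.990% as lower in Ube3am-/p+ mice. *Olfm3* ranked 5 by fold change among the 143 genes called lower. Next to it in that order were *4930447C04Rik*, with a log2 fold change of -0.90, and *Zfp758*, with -0.81. The call depended on which mice were used. Without WT mouse 2 or 3 the adjusted p of *Olfm3* in edgeR was 0.232 or 0.195, and without Ube3am-/p+ mouse 2 or 3 it was 0.251 or 0.121, while without mouse 1 of either genotype it was 0.00238 (WT) or 0.0039 (Ube3am-/p+). In tissue libraries, fewer cells that express a gene and less of its RNA per cell cannot be told apart.

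**Figure D1:**
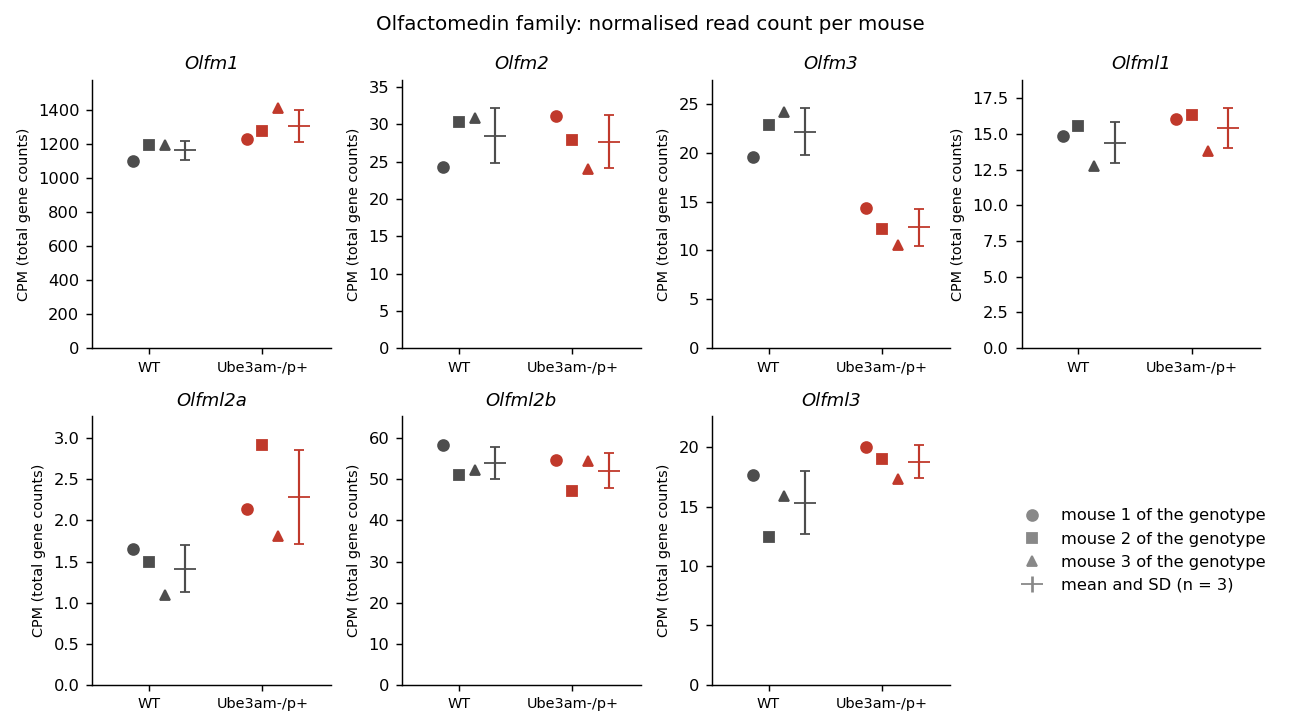
Normalised read counts (CPM on total gene counts, y axis from 0) of the 7 members in each mouse, by genotype, with symbols for the mouse number and bars for the mean and SD of 3 mice. *Olfm3* runs from 19.6 to 24.1 CPM in WT mice and from 10.6 to 14.3 CPM in Ube3am-/p+ mice, while *Olfm2*, *Olfml1*, *Olfml2b* and *Olfml3* overlap between genotypes.

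*Olfm3* lies on chromosome 3 at 114904078 to 115125722, on the plus strand of GRCm38 (GENCODE M21), and its exons cover 4938 bases in 3 coding transcripts. No exon base of it, or of the other members, is shared with another annotated gene. The study concerned retinoic acid signalling, so the 250 bases before each RefSeq start of *Olfm3* (GRCm38.p6) were read for the core hexamers of retinoic acid receptor sites, AGGTCA (in 14% of all mouse windows of this length), AGTTCA (in 11.8%), GGGTCA (in 11.6%) and GGTTCA (in 8.85%), on both strands. The first window, chr3:114903828-114904077 on the plus strand, ends just before the first annotated base of the gene. The second, chr3:115080715-115080964 on the plus strand, lies within the gene and in none of its exons. A window of *Olfm1*, chr2:28205439-28205688 on the plus strand, is shown for contrast, since it is as rich in CG pairs as any window of the family, and its last 30 bases are annotated exon. Capitals mark the hexamers, 5′ to 3′ on the gene's strand.
Olfm3, first start: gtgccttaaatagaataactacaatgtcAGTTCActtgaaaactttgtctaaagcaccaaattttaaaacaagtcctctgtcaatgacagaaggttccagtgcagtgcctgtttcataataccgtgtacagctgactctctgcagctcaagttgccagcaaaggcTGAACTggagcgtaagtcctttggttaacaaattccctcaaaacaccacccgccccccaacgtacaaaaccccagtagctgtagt
Olfm3, second start: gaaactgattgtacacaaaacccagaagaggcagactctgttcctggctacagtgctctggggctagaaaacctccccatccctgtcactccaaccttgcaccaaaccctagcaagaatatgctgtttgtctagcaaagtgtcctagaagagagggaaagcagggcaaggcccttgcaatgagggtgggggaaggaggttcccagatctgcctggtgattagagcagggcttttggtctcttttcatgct
Olfm1, second start: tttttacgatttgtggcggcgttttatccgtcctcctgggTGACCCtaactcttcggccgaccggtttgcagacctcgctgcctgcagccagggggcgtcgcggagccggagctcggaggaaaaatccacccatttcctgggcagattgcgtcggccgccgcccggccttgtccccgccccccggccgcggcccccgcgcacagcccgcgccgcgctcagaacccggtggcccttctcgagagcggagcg
The first *Olfm3* window holds AGTTCA once on each strand, with first bases 222 and 85 bases before the start, and the second holds none of the hexamers. The *Olfm1* window holds GGGTCA on the opposite strand, 210 bases before the start. The GC content is 44% and 51.2% in the *Olfm3* windows, with 4 and 0 CG pairs, and 69.2% in the *Olfm1* window, with 32 CG pairs. Over the family, 8 of 11 windows hold at least 1 hexamer, beside 38.6% of the 32851 mouse windows, a window with several being counted once. A match is only these letters in a window, windows of 1 gene are not independent, and the counts do not tell which start was used.

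*Olfm1*, the gene of noelin-1, was the most abundant member. It had 1102, 1199 and 1195 CPM in WT mice 1, 2 and 3, and 1231, 1281 and 1411 CPM in Ube3am-/p+ mice 1, 2 and 3. Every Ube3am-/p+ mouse lay above every WT mouse, by a small margin between the closest pair. The means were 1165 ± 55.0 CPM in WT mice and 1308 ± 93.0 CPM in Ube3am-/p+ mice (SD, n = 3 each), and the log2 fold change was 0.18 ± 0.09 (SE), with a 95% interval from 0.00 to 0.37. *Olfm2*, the gene of noelin-2, overlapped between genotypes. It had 24.3, 30.3 and 30.9 CPM in WT mice and 31.1, 27.9 and 24.0 CPM in Ube3am-/p+ mice, with means of 28.5 ± 3.66 and 27.7 ± 3.54 CPM and a log2 fold change of -0.02 (95% interval -0.30 to 0.25).

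Ratios between the noelins within a library do not depend on a single scaling factor per library. They can still move with a library's GC trend, since the GC content was 55.0% in *Olfm1*, 57.5% in *Olfm2* and 36.7% in *Olfm3*. The ratios are given without correction for it. The *Olfm1* count was 56.3, 52.5 and 49.5 times that of *Olfm3* in WT mice 1, 2 and 3, and 86.0, 105 and 134 times in Ube3am-/p+ mice 1, 2 and 3. Per kb of exon, *Olfm2* was 2.30, 2.46 and 2.37 times *Olfm3* in WT mice and 4.03, 4.24 and 4.22 times in Ube3am-/p+ mice. The *Olfm3* share of noelin RNA per kb was 1.23% to 1.39% in WT mice and 0.523% to 0.803% in Ube3am-/p+ mice. These ratios use the fall of *Olfm3* for which it was chosen, so they are not a separate result.

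The photomedin genes stood far apart in level. *Olfml2b* had 58.3, 51.1 and 52.4 CPM in WT mice and 54.7, 47.1 and 54.4 CPM in Ube3am-/p+ mice. Its means of 53.9 ± 3.86 and 52.1 ± 4.28 CPM (SD, n = 3 each) lay within the spread between mice, and its log2 fold change was -0.03 (95% interval -0.25 to 0.18). *Olfml2a* had the fewest counts of the family, with 14, 13 and 8 counts in WT mice and 19, 33 and 19 counts in Ube3am-/p+ mice. Its level was 1.41 ± 0.285 CPM in WT mice and 2.29 ± 0.57 CPM in Ube3am-/p+ mice, higher in every Ube3am-/p+ mouse, and the 95% interval of its log2 fold change of 0.70 ran from -0.05 to 1.46. At these counts, counting error alone gives a coefficient of variation of 29.3% in WT mice and 20.6% in Ube3am-/p+ mice, close to the 20.2% and 24.9% measured between mice.

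*Olfml3* had 17.7, 12.4 and 15.9 CPM in WT mice and 20.1, 19.0 and 17.3 CPM in Ube3am-/p+ mice. The genotypes overlapped, as WT mouse 1 lay above Ube3am-/p+ mouse 3. The means were 15.3 ± 2.66 and 18.8 ± 1.40 CPM (SD, n = 3 each), with a log2 fold change of 0.31 and a 95% interval from -0.01 to 0.63. The 10 microglial markers listed for comparison summed to 459 to 493 CPM in WT mice and to 418 to 439 CPM in Ube3am-/p+ mice, and none was at 0. Of these markers 3 had a log2 fold change above 0 and 7 below. Among them edgeR called 0, beside 2.01% of all tested genes. At an unadjusted p below 0.05 there were 5 of 10, 1 higher and 4 lower, beside 24.6%. DESeq2 called 2, both lower, beside 6.58% of all tested genes. The sum of the 10 markers was lower in every Ube3am-/p+ mouse, though single markers went both ways, and it carries no correction for GC content. The mean of *Olfml3* was higher, and the part of microglia in its level was not tested.

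*Olfml1* had 14.8, 15.6 and 12.8 CPM in WT mice and 16.0, 16.4 and 13.8 CPM in Ube3am-/p+ mice. The genotypes overlapped, with means of 14.4 ± 1.46 and 15.4 ± 1.39 CPM (SD, n = 3 each) and a log2 fold change of 0.11 (95% interval -0.20 to 0.42). Its spread between mice, a coefficient of variation of 10.1% in WT mice and 9.06% in Ube3am-/p+ mice, was hardly above the 9.21% and 7.97% that counting error gives. *Olfm1* was the opposite case, with 4.72% and 7.11% between mice and 1.03% and 0.863% from counting, so that the spread between its libraries was well above counting error. For *Olfm3* the coefficients were 10.6% and 15.3% between mice and 7.45% and 8.93% from counting.

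Over the family, 4 members had a log2 fold change above 0 and 3 below, with a median of 0.11, beside 0.00 over all tested genes. *Olfm3* was the 1 member called, 1 of 7, beside 2.01% of all tested genes. *Olfm1*, *Olfm3* and *Olfml2a* did not overlap between genotypes, 3 of 7, and 25.0% of all tested genes did not overlap. Since the family was chosen on this contrast, nothing is read from these shares.

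**Figure D2:**
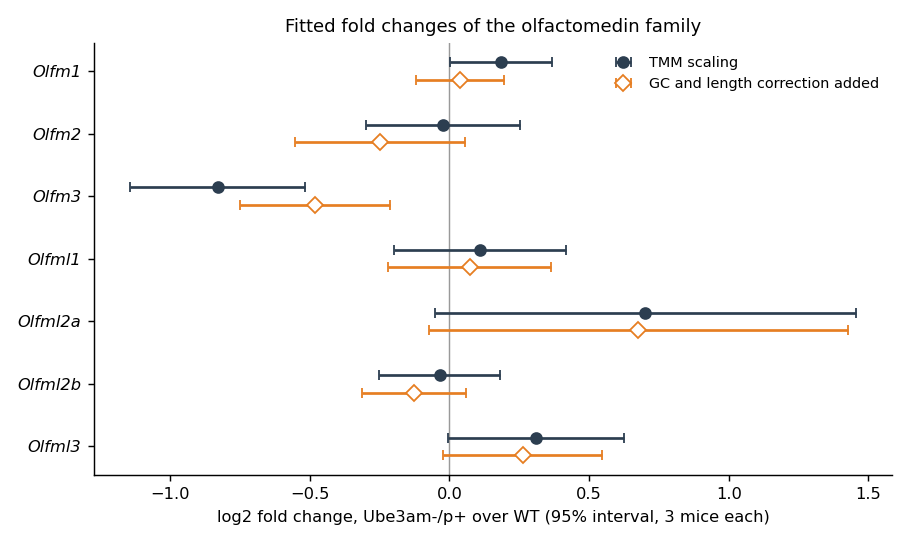
Fitted log2 fold changes, Ube3am-/p+ over WT (x axis), of the 7 members with 95% intervals from edgeR (3 mice per genotype), before (filled) and after (open) a per-library correction for base composition and length of transcripts. *Olfm3* moves from -0.83 to -0.48 and *Olfm2* from -0.02 to -0.25, and the interval of *Olfm3* stays below 0 in both.

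Levels of different genes were compared as CPM per kb of the union of exons. In WT mice *Olfm1* was at 328 ± 15.5 CPM per kb, 18.8 times the next member, *Olfml2b*, at 17.4 ± 1.25. *Olfm2* at 10.7 ± 1.37 and *Olfml1* at 8.54 ± 0.866 CPM per kb followed (SD, n = 3), and their ranges over mice overlapped. *Olfm3* at 4.49 ± 0.478, *Olfml3* at 2.49 ± 0.431 and *Olfml2a* at 0.254 ± 0.0512 CPM per kb came last, with no overlap between neighbours. In Ube3am-/p+ mice *Olfm3* was at 2.50 ± 0.382 and *Olfml3* at 3.05 ± 0.226 CPM per kb, so this pair changed places and its ranges overlapped. All other members kept their place, and *Olfm1* held 89.0% to 92.1% of the family's counts in every library. The places of *Olfm3* and *Olfml3* were the same with the longest transcript as length. They rest on the lengths used, as coding transcripts ran from 674 to 4647 bases in *Olfm3* and from 874 to 5465 in *Olfml3*. Their change of place uses the fall for which *Olfm3* was chosen, so it is not a separate result.

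**Figure D3:**
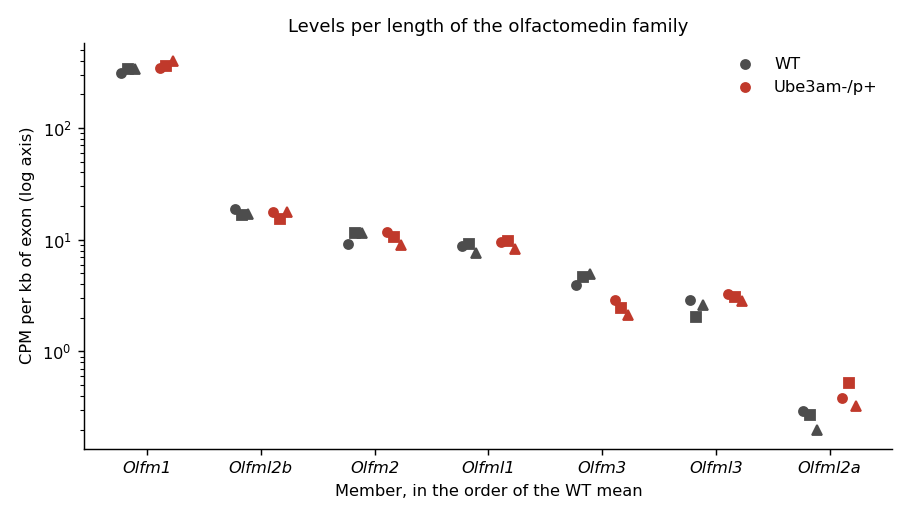
Level of each member per kb of exon (CPM per kb, log axis) in each of the 6 mice, by genotype, with members ordered by their WT mean. *Olfm1* stands near 328 CPM per kb in WT mice and *Olfml2a* near 0.254. With the union of exons as length, *Olfm3* and *Olfml3* are the neighbours whose order by the mean differs between genotypes.

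*Olfm3* stood apart in base composition. The GC content of its longest transcript was 36.7%, and 0.866% of the 14201 tested genes with a value had a lower one. The other members ranged from 48.7% in *Olfml1* to 57.5% in *Olfm2*, beside a median of 49.9% over tested genes. The GC content and the log2 fold change between genotypes had a Spearman's rho of 0.62 over these genes, whose values are not independent of one another, and genes of low GC content tended to be lower in Ube3am-/p+ mice.

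After each library was corrected for the GC content and the length of transcripts, *Olfm3* had 19.5, 19.4 and 19.6 corrected CPM in WT mice and 14.7, 14.3 and 12.8 in Ube3am-/p+ mice. The genotypes still did not overlap. The SD among WT mice was 0.0973 CPM on a mean of 19.5 CPM, far below the coefficient of variation of 7.45% that counting error alone gives. This closeness of 3 values is therefore not read as a measure of spread. The log2 fold change of *Olfm3* was then -0.48 ± 0.13 (SE), with a 95% interval from -0.75 to -0.21 and an adjusted p of 0.0731 in edgeR, so the call was lost. *Olfm1* overlapped between genotypes after the correction, at a log2 fold change of 0.04 (95% interval -0.12 to 0.20), and *Olfm2* was at -0.25 (-0.55 to 0.05). *Olfml3* no longer overlapped, with 17.5, 12.7 and 16.3 corrected CPM in WT mice and 19.8, 18.2 and 17.7 in Ube3am-/p+ mice, while its log2 fold change was 0.26 (95% interval -0.02 to 0.55). After the correction edgeR called 0 of the 7 members, beside 0.648% of all genes, and 1 member (*Olfm3*) had an unadjusted p below 0.05. In GC trend, mouse 1 of each genotype lay near the average of the 6 libraries, which need not be free of a trend. These mice had 19.6 (WT) and 14.3 (Ube3am-/p+) CPM of *Olfm3* before correction. This is 1 library against 1, without a spread and from the values that chose *Olfm3*, so nothing is read from it. In mice 2 and 3 the GC trend ran opposite in the genotypes, so that base composition and genotype cannot be told apart in this contrast.

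**Figure D4:**
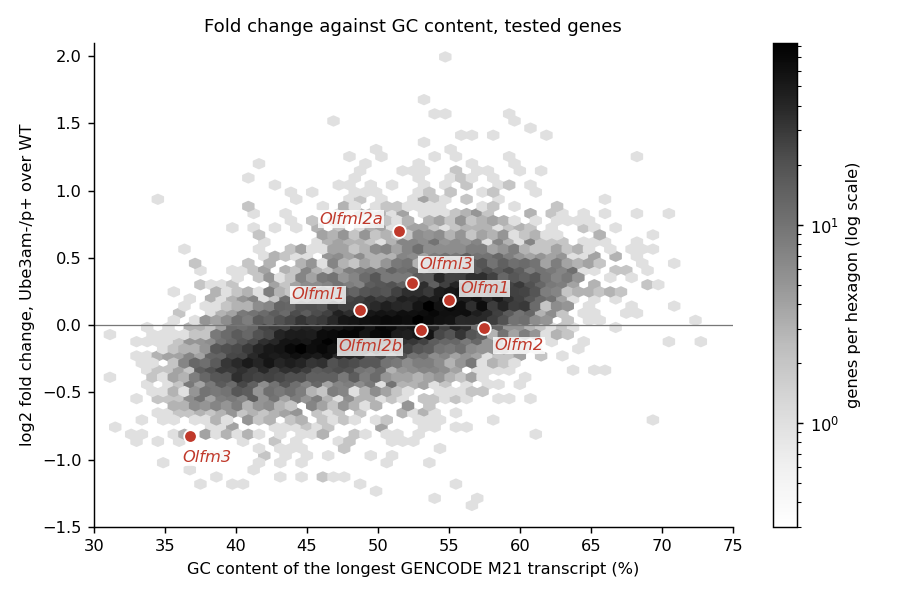
Log2 fold change, Ube3am-/p+ over WT (y axis), against the GC content of the longest transcript (x axis, %), with tested genes as hexagons shaded by number on a log scale and the 7 members as points. *Olfm3*, at 36.7% GC and -0.83, lies at the low end of a cloud that slopes upward.

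By a rule of likeness, the 5 genes whose log2 CPM over the 6 libraries had the highest Pearson correlation with *Olfm3* were *Prex2* (0.997), *Vps13a* (0.996), *Mib1* (0.995), *Zfp983* (0.995) and *Gmnc* (0.994). Their transcripts had GC contents of 37.9% to 43.4%, and their log2 fold changes ran from -0.78 in *Gmnc* to -0.27 in *Mib1*. Correlations over 0.9 with *Olfm3* were seen in 1045 of 14438 other genes. For *Olfm1* the 5 genes were *Arf4* (0.992), *2310033P09Rik* (0.985), *Nim1k* (0.983), *Foxj2* (0.981) and *Mir3074-1* (0.980), with 144 genes over 0.9. The 6 points of each correlation share their library, its depth and its GC trend, and the values are descriptions.

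Genes related to the family were taken from 3 lists, with 28 genes that were all tested. Of 6 other genes with an olfactomedin domain, edgeR called 1 higher and 0 lower, beside 2.01% of all tested genes. Their median log2 fold change was -0.15. At an unadjusted p below 0.05 there were 2 higher and 2 lower, 4 of 6 beside 24.6% of all tested genes. DESeq2 called 1 in each direction, beside 6.58% of all tested genes. *Myoc*, the gene of myocilin, a secreted protein known from the eye, had 12.1, 8.41 and 13.6 CPM in WT mice and 17.9, 24.0 and 20.8 CPM in Ube3am-/p+ mice. It was higher in every Ube3am-/p+ mouse, with a log2 fold change of 0.91 ± 0.17 (SE, adjusted p = 0.0362 in edgeR), and after the GC and length correction it was at 0.76 (adjusted p = 0.0163 in edgeR). Its exons share 93 bases with *Myocos* on the opposite strand, and how strand was counted is not given in the sources used here. Left-out mice changed the call, as the adjusted p in edgeR was 0.232 and 0.104 without WT mouse 2 and 3, and 0.251 and 0.121 without Ube3am-/p+ mouse 2 and 3. The 8 markers of fibroblasts and meninges summed to 93.9 to 150.0 CPM in WT mice and to 98.3 to 178 CPM in Ube3am-/p+ mice. *Igf2*, named for its high level, made up a large part of these sums. It was highest in WT mouse 3 (97.1 CPM) and Ube3am-/p+ mouse 1 (109 CPM). The choroid plexus markers also summed highest in these mice, at 2193 and 2279 CPM. Of the 8 markers 7 had a log2 fold change above 0 and 1 below. Among them edgeR called 1, *Col1a1*, at 0.73 (adjusted p = 0.0416 in edgeR), beside 2.01% of all tested genes. At an unadjusted p below 0.05 there were 2 of 8, beside 24.6%. After the correction *Col1a1* was at 0.55 (adjusted p = 0.0751 in edgeR), so its call was lost. The part of these cells in the level of *Myoc* was not tested. The latrophilin genes *Adgrl1* and *Adgrl3*, adhesion receptors that carry the domain outside the cell, had log2 fold changes of 0.24 (adjusted p = 0.164 in edgeR) and -0.33 (0.102).

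Noelins bind AMPA receptors, and of the 15 genes of the AMPA receptor complex edgeR called 1 lower and 0 higher, beside 2.01% of all tested genes. Their median log2 fold change was -0.04. At an unadjusted p below 0.05 there were 3 in each direction, 6 of 15 beside the same 24.6%. DESeq2 called 2 lower and 1 higher, beside 6.58% of all tested genes. *Gria2*, the subunit that makes these receptors impermeable to calcium, had 1005, 1123 and 1155 CPM in WT mice and 930.3, 819 and 749.7 CPM in Ube3am-/p+ mice. It was lower in every Ube3am-/p+ mouse, with a log2 fold change of -0.38 ± 0.09 (SE, adjusted p = 0.0486 in edgeR). Like *Olfm3* its transcript had a low GC content, 36.8%, and after the correction its log2 fold change was 0.00 (adjusted p = 0.994 in edgeR). *Gria1*, the other subunit picked for its high count, had a log2 fold change of -0.06 (adjusted p = 0.704 in edgeR).

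Of 7 genes of the Nogo receptor complex edgeR called 1 lower and 0 higher, as did DESeq2, beside 2.01% (edgeR) and 6.58% (DESeq2) of all tested genes. The median log2 fold change was 0.16. At an unadjusted p below 0.05 there were 2 higher and 1 lower, 3 of 7 beside 24.6%. *Omg*, a myelin-associated ligand of that receptor, had 115, 151 and 166 CPM in WT mice and 111, 89.4 and 84.7 CPM in Ube3am-/p+ mice. The genotypes did not overlap, and the log2 fold change was -0.58 ± 0.13 (SE, adjusted p = 0.0393 in edgeR) before and -0.40 (adjusted p = 0.0316 in edgeR) after the correction. As for *Olfm3*, leaving out mouse 2 or 3 of either genotype took the adjusted p in edgeR of *Gria2* to between 0.176 and 0.272 and that of *Omg* to between 0.154 and 0.263. *Rtn4*, which encodes the ligand Nogo, had a log2 fold change of -0.10 (adjusted p = 0.450 in edgeR), and *Lingo1*, a co-receptor, of 0.25 (adjusted p = 0.0799). *Rtn4* shares 1284 exon bases with *Eml6* on the opposite strand.

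**Figure D5:**
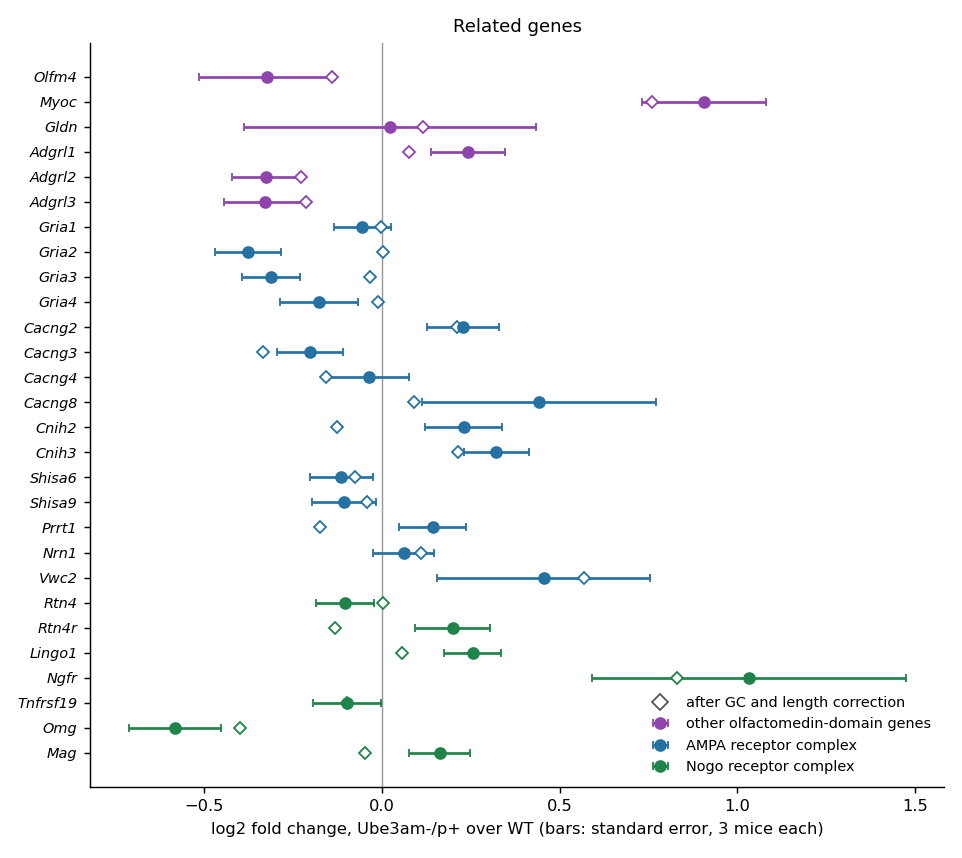
Log2 fold changes, Ube3am-/p+ over WT, of the 28 genes in the 3 related lists, as filled points with standard errors (3 mice per genotype), and as open points after the GC and length correction. *Myoc* at 0.91 and *Omg* at -0.58 are called in both fits, and *Gria2* moves from -0.38 to 0.00.

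Of the remaining marker lists, the 8 genes of endothelium and mural cells summed to 364 to 393 CPM in WT mice and to 334 to 359 CPM in Ube3am-/p+ mice. *Rgs5* made up a large part of these sums, with means of 127 CPM (WT) and 87.9 CPM (Ube3am-/p+). It was the 1 gene of the list called, as lower (log2 fold change -0.51, adjusted p = 0.0387 in edgeR), beside 2.01% of all tested genes. In this list 5 genes had a log2 fold change above 0 and 3 below. The 6 genes of the thalamus summed to 134 to 139 CPM in WT mice and to 127 to 139 CPM in Ube3am-/p+ mice. Of these 1 was called, *Rora*, as lower (-0.62, adjusted p = 0.0387 in edgeR), beside 2.01% of all tested genes. In the thalamus list 2 genes had a log2 fold change above 0 and 4 below. *Col1a1*, *Rgs5* and *Rora* were named after their values were seen. After the GC and length correction their adjusted p in edgeR were 0.0751, 0.0751 and 0.165, so all 3 calls were lost. None of the listed markers was at 0 in the libraries, and the part of these cells in the levels of the family was not tested.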

How the data were processed

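Hippocampal RNA of 6 mice was sequenced, 1 library per mouse. The authors deposited counts, whole numbers of reads per gene symbol and library, without normalization or pooling. The submitters' processing notes name STAR 2.7.4a, HTSeq and mm10, and the annotation and strand setting are not given in the sources used here. Lines that name no gene were left out of library sizes, and reads on no gene made up 54.1% to 55.0% of those listed. Reads with more than 1 alignment made up 3.71% to 5.77%.

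CPM were computed on total gene counts. Groups and mouse numbers came from the sample titles. Counts of all genes were filtered by edgeR's filterByExpr (edgeR 4.0.16, R 4.3.3), scaled by TMM and tested for genotype alone by its robust quasi-likelihood F test (two-sided). Adjusted p are Benjamini-Hochberg values over 14445 genes. With 3 mice per genotype, p-values set the genotype difference against each gene's dispersion between these samples, moderated across genes. The biological coefficient of variation was 0.102. Alternatives were DESeq2 (1.42.0), DESeq2 size factors, library size only, other filters, the unadjusted p, a block for the replicate number, per-library splines (5 degrees of freedom) on GC content and on length, each taken from the longest transcript in GENCODE M21, both together, and leaving out each mouse. The correction used the 98.3% of tested genes with a transcript. The tests were checked on simulated data with 200 genes changed by a fold of 2. Without a GC trend edgeR recovered 194 with 12 false calls, and DESeq2 184 with 11. With a GC trend of a set size added, opposite in the genotypes, uncorrected edgeR recovered 191 with 303 false calls. With the GC and length correction it recovered 190 with 12 false calls. The added trend was linear in GC content, and the changed genes were drawn without regard to it. The simulation therefore does not show how the correction treats a true change in a gene of low GC content. The main fit carries no such correction.

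The members and lists were chosen with earlier results of these data known. Genes were named by rule: the members, *Ube3a*, the called genes and the 2 with the highest CPM of each related list, and the 5 most like *Olfm3* and *Olfm1*. The other exceptions are stated beside them, including the neighbours of *Olfm3* in rank. Promoter windows are from RefSeq (GRCm38.p6), where all 7 members matched by symbol, and gene models from GENCODE M21 (GRCm38). The authors' build, mm10, is the same assembly.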

Additional observations from a re-analysis of the deposited data

How the results depend on the processing

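The sign of each log2 fold change of *Olfm1*, *Olfm3*, *Olfml1*, *Olfml2a* and *Olfml3* was kept under every alternative that gave a value. For *Olfm3* it stayed between -0.93 and -0.48. Its call was lost with the replicate block (-0.83, adjusted p = 0.216 in edgeR), with the GC and length correction (-0.48, adjusted p = 0.0731) and with both (-0.48, adjusted p = 0.167), and with mice left out it ran from -0.93 to -0.73 (adjusted p 0.00238 to 0.251). The number of members called went from 1 to 0 in those 3 fits and was 0 to 1 with mice left out. *Olfm2* reversed to 0.027 and 0.030 without WT mouse 2 and 3 and to 0.063 without Ube3am-/p+ mouse 3, and ran from -0.13 to 0.063 with mice left out. *Olfml2b* reversed to 0.028 without WT mouse 1 and 0.044 without Ube3am-/p+ mouse 2, and ran from -0.075 to 0.044. The number of genes called, 290, was 951 by DESeq2, 1176 with no filter, 2832 at an unadjusted p below 0.05 with the same fold threshold, 92 after the correction, 13 with correction and replicate block, and 0 to 2582 with mice left out. With the replicate block alone edgeR called 0, with 2422 genes at an unadjusted p below 0.05 and no fold threshold. It also called 0 without WT mouse 2, WT mouse 3 or Ube3am-/p+ mouse 2 (2075, 2159 and 2128 by the same count) and 2 without Ube3am-/p+ mouse 3. The same-numbered mice did not deviate together from their genotype means (correlations -0.285, -0.177 and -0.311). In mice 2 and 3 the GC trend ran opposite in the genotypes, which can make these correlations negative with or without pairs. They therefore cannot tell whether the numbers mark pairs, and the main fit used no pairs. Among the 28 related genes the 3 calls became 6 by DESeq2, 6 with no filter, 8 at an unadjusted p with that fold threshold, 0 with the replicate block, 0 with correction and block, and 0 to 11 with mice left out. The level of *Olfm1* over *Olfm3* per kb in WT mice was 73.0, and 88.6 with the longest transcript as length. *Olfml2a* gave no value with at least 10 counts in every library. The cause of these shifts was not tested, except that left-out mice and filters change what is tested. Depth limits *Olfml2a*, with 106 counts in all libraries.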
